A study of Mus musculus with 6 samples.

Results

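The genes described here encode the common gamma chain, its partner chains and a few related cytokine receptor chains in CD4-CD8- double negative T (DNT) cells. They are 10 genes, taken by symbol from a list of receptor chains, Il2ra, Il2rb, Il2rg, Il4ra, Il9r, Il15ra, Il21r, Il17rb, Il12rb1 and Il12rb2, of the 26128 genes in the count table, and all 10 passed the filter on low counts that left 14671 genes to test. RNA sequencing covered 6 libraries of DNT cells of adult C57BL/6 mice, 3 untreated controls and 3 given IL-33 at 50 ng/ml, and the comparison asks how IL-33 changed gene expression. In both groups culture lasted 48 h in the presence of anti-CD3/CD28 beads, which engage the T cell receptor and a costimulatory receptor. The DNT cells of both groups had been made in culture, from CD4+CD25- T cells of spleen and lymph nodes kept with mature dendritic cells of DBA/2 mice and IL-2, and were sorted as CD3+NK1.1-CD4-CD8-, so that they are converted cells and not DNT cells taken directly from an animal. The sample labels give spleen as the tissue. Neither the labels nor the methods say whether replicates came from separate mice, conversions or wells, and the p-values measure only the spread between these libraries.

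The common gamma chain, encoded by Il2rg, is a subunit shared by the receptors for IL-2, IL-4, IL-7, IL-9, IL-15 and IL-21, cytokines that govern the growth, survival and differentiation of lymphocytes. It pairs with a chain that gives each receptor its ligand, such as IL4RA, IL9R or IL21R, and signals through the kinases JAK1 and JAK3 to transcription factors of the STAT family. The receptors for IL-2 and IL-15 also share IL2RB, while IL2RA (CD25) and IL15RA raise the affinity for one or the other cytokine. IL12RB1 and IL12RB2 form the receptor for IL-12, which acts through STAT4, and IL17RB joins IL17RA in the receptor for IL-25, a cytokine of type 2 immunity. IL-33 itself binds ST2, a member of the interleukin-1 receptor family that has no chain in common with these receptors.

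Windows around the transcription start were given for 8 of the 10 genes by RefSeq (GRCm38.p6), from 250 bases before the start to 50 bases after it, as 9 windows because Il15ra has 2. Il2rb and Il12rb1 had none among them. Bases before the start are shown 5′ to 3′ for the genes that fell past both thresholds used below, Il17rb and Il9r, and for the 2 with the largest rises, Il2ra and Il12rb2. Capitals mark matches to the AP-1 motif TGANTCA in Il17rb, the GATA motif AGATAA on either strand in Il9r and the STAT motif TTCNNNGAA in Il12rb2. The starts are those of RefSeq, which for Il2ra lies a few bases before the start in GENCODE. For Il17rb the stretch is all bases between its start and that of Chdh on the other strand.
Il17rb, chr14:30008897-30009022, minus strand: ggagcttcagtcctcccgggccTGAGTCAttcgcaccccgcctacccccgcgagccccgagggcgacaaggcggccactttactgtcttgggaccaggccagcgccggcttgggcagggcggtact
Il9r, chr11:32200280-32200529, minus strand: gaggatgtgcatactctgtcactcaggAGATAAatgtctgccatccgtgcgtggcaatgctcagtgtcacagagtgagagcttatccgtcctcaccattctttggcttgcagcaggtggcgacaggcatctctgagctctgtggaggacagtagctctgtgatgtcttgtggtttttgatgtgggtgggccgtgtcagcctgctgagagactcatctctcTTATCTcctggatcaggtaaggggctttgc
Il2ra, chr2:11642542-11642791, plus strand: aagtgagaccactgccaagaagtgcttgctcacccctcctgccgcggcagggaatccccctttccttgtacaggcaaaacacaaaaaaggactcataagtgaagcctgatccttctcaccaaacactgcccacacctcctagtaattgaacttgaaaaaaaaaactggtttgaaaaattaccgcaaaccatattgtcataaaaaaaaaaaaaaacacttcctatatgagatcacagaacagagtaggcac
Il12rb2, chr6:67376189-67376338, minus strand: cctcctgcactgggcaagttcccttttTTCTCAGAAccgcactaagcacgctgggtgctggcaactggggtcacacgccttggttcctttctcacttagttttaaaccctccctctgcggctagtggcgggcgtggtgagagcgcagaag

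In the search of both strands the AP-1 motif was found in 2 of the 9 windows, those of Il17rb (TGAGTCA, 104 to 98 bases before the start) and the second window of Il15ra (TGAGTCA, 30 to 24 bases before it). The window of Il12rb2 held the STAT motif (TTCTCAGAA, 123 to 115 bases before the start), and that of Il9r held the GATA motif at 2 places, AGATAA from 223 to 218 bases and TTATCT from 30 to 25 bases before the start. The ETS motif CCGGAAGT was in 0 of the 9, as was the narrow spelling of the NF-kB motif that was searched. Other spellings of NF-kB sites were not searched, so these windows may hold such sites. Over all 32851 windows the AP-1 motif was in 7.81%, the STAT motif in 8.30% and the GATA motif in 11.2%. The searched NF-kB spelling was in 0.411% and the ETS motif in 3.89%. The motifs do not contain one another, and a match in these windows is a match of letters only.

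The libraries held 20256342 to 22336050 counts, and 3 counts, taken as the limit of detection, equalled 0.134 to 0.148 counts per 1000000 (CPM), a limit that covers counting error only. All 10 T cell markers on a list that includes Cd3e, Cd3d, Cd3g, Lck and Zap70 were measured. Of these 2 rose and 4 fell, where 27.5% of all genes tested passed. Those that fell were Cd5 (log2 fold change -0.43), Lat (-0.26), Lck (-0.17) and Cd2 (-0.16), and those that rose were Cd28 (0.14) and Cd3g (0.13). Cd3g, the highest of the list in CPM, was at 706 ± 36.6 CPM in controls and 776 ± 38.9 with IL-33 (SD, n = 3 each). The adjusted p of Cd3g was 0.0336 in edgeR, 0.0879 in DESeq2 and 0.0538 in edgeR without control replicate 3. Of the genes behind the negative gates, Cd4 was low, at 0.934 CPM in controls and 0.373 with IL-33, and Klrb1c, which encodes NK1.1, was at 33.5 and 25.6 CPM. Cd8a RNA was not absent from cells sorted as CD8-, at 545 ± 13.6 CPM in controls and 400.2 ± 9.15 with IL-33, while Cd8b1, its partner chain, was at 9.69 and 16.3 CPM (SD, n = 3 each). Of these 4 genes Cd8b1 rose (log2 fold change 0.75). Cd4 (-1.31), Cd8a (-0.45) and Klrb1c (-0.385) fell, where 27.5% of all genes tested passed. Reads of Cd8a do not show protein at the surface.

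With IL-33, 3 of the 10 receptor genes rose (Il2ra, Il12rb2 and Il2rb), 3 fell (Il17rb, Il9r and Il2rg) and 4 did not pass the test (Il4ra, Il15ra, Il21r and Il12rb1). The largest change was in Il17rb, which was 2.01-fold lower, followed by Il9r, 1.54-fold lower, and the largest rises, those of Il12rb2 and Il2ra, were both by 1.26-fold. Groups were compared by the quasi-likelihood test of edgeR, with p-values adjusted by Benjamini and Hochberg's method over all genes tested, and the 6 genes had an adjusted p under 0.05, which 27.5% of all genes tested had. Past both this threshold and a fold change of 1.5 in either direction were 2 of the 10, both lower, against 4.87% of all genes tested (2.47% higher and 2.39% lower). In the same 6 genes the groups did not overlap, with 3 genes higher in each IL-33 library and 3 lower, against 38.9% of all genes tested (19.4% higher and 19.5% lower). The median log2 fold change of the 10 genes was -0.067, and that of all genes tested was -6e-04. In RNA from a whole population of cells, fewer cells with a transcript and less of it per cell cannot be told apart, and this holds for every change given here.

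**Figure D1:**
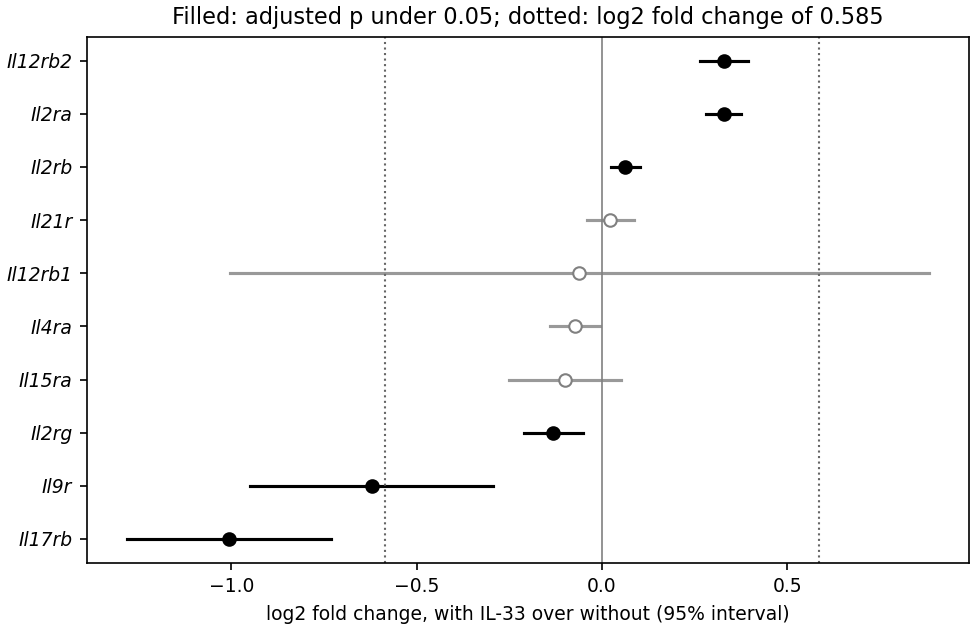
Log2 fold change of each of the 10 receptor genes, with IL-33 over control, on the x axis, with its 95% interval as a bar (edgeR, n = 3 libraries in each group). Filled points have an adjusted p under 0.05 and dotted lines mark a fold change of 1.5 in either direction; Il17rb at -1.01 and Il9r at -0.62 are the points beyond the lines, and Il12rb1 has the widest interval, from -1.0 to 0.88.

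Levels differed far more between the receptor genes than between the groups. Levels of different genes were compared per length, as CPM divided by the kilobases of exon (RPKM), and from Il2rb to Il9r they spanned 572-fold in controls and 921-fold with IL-33. In controls Il2rb stood at 725 RPKM, above 99.7% of the genes tested, followed by Il2ra at 167, Il4ra at 85.0, Il21r at 83.4, Il12rb2 at 56.3 and Il2rg at 52.8 RPKM. Il12rb1 at 6.43 and Il15ra at 6.36 RPKM were lower by a wide step, and Il17rb at 2.89 and Il9r at 1.27 RPKM closed the order. The ranges over libraries overlapped between Il4ra and Il21r and between Il12rb1 and Il15ra, so that neither pair could be placed in order, and every other pair of neighbours was apart. With IL-33 the order was the same except that Il21r (84.7 RPKM) and Il4ra (80.9 RPKM), which still overlapped, changed places.

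The order in the middle depended on the length taken for each gene. With the longest transcript in place of all exon bases Il2rg was at 75.5 RPKM in controls, above Il12rb2 at 71.2, and Il15ra, at 12.2 RPKM, was above Il12rb1, at 9.19. The places of Il2rb, Il2ra, Il17rb and Il9r, at the top and the bottom of the order, were the same under each length tried.

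**Figure D2:**
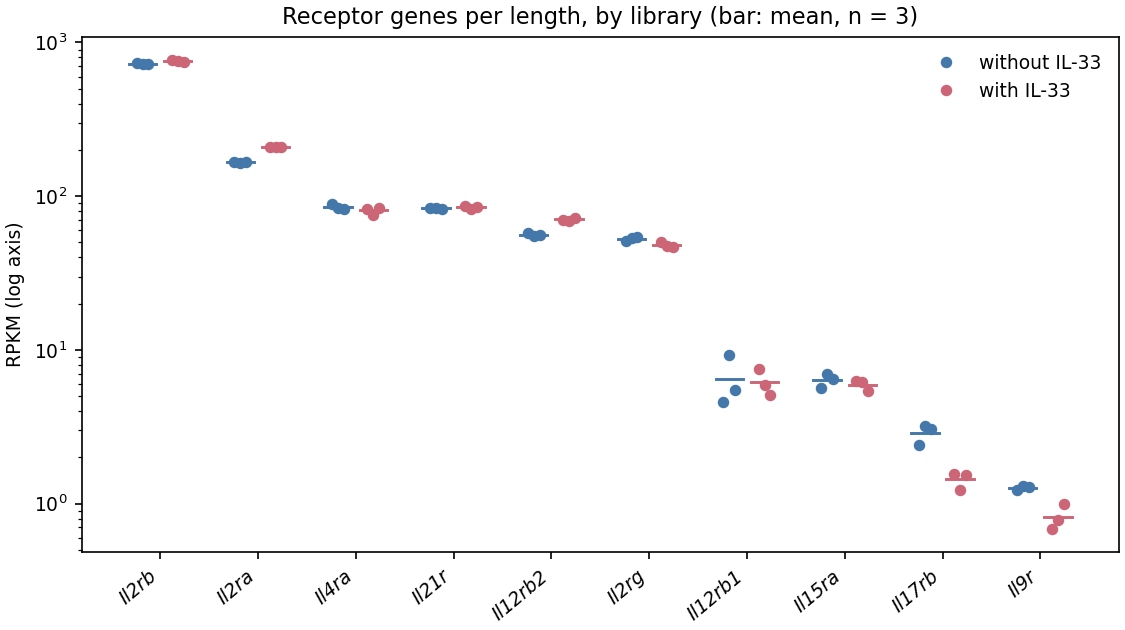
Level per length (RPKM, log axis) of the 10 receptor genes in each library, ordered by the mean in controls; points are libraries and bars are means of 3. Il2rb lies highest at 725 and 758 RPKM and Il9r lowest at 1.27 and 0.823 RPKM, and the libraries of the groups lie apart for Il2ra, Il12rb2 and Il17rb, among others, and mix for Il12rb1.

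Il2rb and Il2ra, which with Il2rg encode the receptor for IL-2, had the highest levels per length of the 10 genes. Il2ra (ENSMUSG00000026770, plus strand of chromosome 2 from 11642807 to 11693193, with all positions here from GENCODE M21 on GRCm38) encodes CD25, the chain that makes the receptor one of high affinity. It had 956, 945 and 953 CPM in the control libraries and 1191, 1199 and 1192 CPM with IL-33, so that every library with IL-33 was higher and the libraries of each group lay close together. Its mean rose from 951 ± 5.31 to 1194 ± 4.16 CPM (SD, n = 3 each), and the log2 fold change was 0.33 (SE, its standard error, 0.023, 95% interval 0.28 to 0.37, adjusted p = 5.96e-23, edgeR's quasi-likelihood test, Benjamini-Hochberg adjusted). The stretch before its start printed above held none of the 5 motifs in the spellings searched. Other spellings, those of NF-kB sites included, were not searched, so the stretch may hold such sites.

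Il2rb (ENSMUSG00000068227, minus strand of chromosome 15 from 78479256 to 78495271) encodes the signalling chain shared by the receptors for IL-2 and IL-15. It had 3145, 3093 and 3092 CPM in controls and 3289, 3237 and 3220 CPM with IL-33, groups that were close to each other but did not overlap. The rise, from 3110 ± 30.1 to 3249 ± 35.9 CPM (SD, n = 3 each), was small, at a log2 fold change of 0.063 (SE 0.019, adjusted p = 0.00861 in edgeR). Without IL-33 replicate 1 the adjusted p was 0.0676, past the threshold no longer.

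Il2rg (ENSMUSG00000031304, minus strand of chromosome X from 101264378 to 101268255), the gene of the common gamma chain itself, moved the other way. Its levels were 122, 127 and 129 CPM in controls and 120.1, 114 and 111 CPM with IL-33, lower in each library with IL-33 than in each control, though control replicate 1 and IL-33 replicate 1 were near each other. The mean fell from 126.0 ± 3.58 to 115 ± 4.52 CPM (SD, n = 3 each), and the log2 fold change was -0.13 (SE 0.04, adjusted p = 0.0072 in edgeR). The adjusted p was 0.0547 without control replicate 3 and 0.0653 without IL-33 replicate 3. Of the exon bases of Il2rg 30.5% also belong to Gm20489 on the same strand, a gene listed with 0 or 1 count in each library, and reads there may have been left uncounted.

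Il15ra (ENSMUSG00000023206, plus strand of chromosome 2 from 11705290 to 11734317), which binds IL-15 and presents it to the other chains, lies 12.1 kb from Il2ra on the same strand. In contrast to its neighbour it had overlapping groups, with 25.3, 30.9 and 28.6 CPM in controls and 27.8, 27.3 and 24.1 CPM with IL-33. Its log2 fold change was -0.0995 (95% interval -0.25 to 0.051, adjusted p = 0.36 in edgeR) and the difference from Il2ra was not itself tested.

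Among the chains that pair with the common gamma chain alone to bind a cytokine, Il4ra and Il21r did not pass the test and Il9r fell. Il4ra (ENSMUSG00000030748, plus strand of chromosome 7 from 125552120 to 125579474), the chain for IL-4 and, with IL13RA1, for IL-13, had 532, 506 and 492 CPM in controls and 495, 455 and 506 CPM with IL-33. The groups overlapped, and the log2 fold change was -0.072 (95% interval -0.14 to -0.0043, adjusted p = 0.109 in edgeR), which became -0.097 without control replicate 3 (adjusted p = 0.0297) and -0.10 without IL-33 replicate 3 (adjusted p = 0.0149), past the threshold in both. Il21r (ENSMUSG00000030745, plus strand of chromosome 7 from 125603429 to 125633570) lies 24.0 kb from Il4ra and binds IL-21. It had 279, 280 and 273 CPM in controls and 289, 274 and 282 CPM with IL-33, with a log2 fold change of 0.0225 (95% interval -0.04 to 0.085, adjusted p = 0.651 in edgeR).

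Il9r (ENSMUSG00000020279, minus strand of chromosome 11 from 32187541 to 32200279), the chain for IL-9, had the lowest level per length of the 10 genes. Its counts were 129, 130 and 139 in controls and 73, 81 and 110 with IL-33, which are 6.08, 6.40 and 6.34 CPM against 3.39, 3.86 and 4.95 CPM. The controls lay close together, and the libraries with IL-33 were all lower and more spread. Its mean fell from 6.27 ± 0.171 to 4.07 ± 0.798 CPM (SD, n = 3 each), with a log2 fold change of -0.62 (SE 0.17, 95% interval -0.95 to -0.29, adjusted p = 0.00198 in edgeR). In fits that each left out 1 library the adjusted p stayed under 0.05 and the log2 fold change ran from -0.79 to -0.50, and without IL-33 replicate 1 or without IL-33 replicate 2 it was under the fold change threshold, so that Il17rb was then the 1 gene of the 10 past both thresholds.

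Il17rb (ENSMUSG00000015966, minus strand of chromosome 14 from 29996135 to 30008896), the chain that binds IL-25, showed the largest change. It had 190, 242 and 247 counts in controls and 124, 95 and 126 with IL-33, or 8.95, 11.9 and 11.3 CPM against 5.77, 4.53 and 5.67 CPM, with every library with IL-33 below every control. The mean fell from 10.7 ± 1.56 to 5.32 ± 0.687 CPM (SD, n = 3 each), with a log2 fold change of -1.01 (SE 0.14, 95% interval -1.28 to -0.73, adjusted p = 2.10e-09 in edgeR). It stood above 38.7% of the genes tested per length in controls and above 26.8% with IL-33. Against the fold change threshold itself (edgeR's glmTreat) its adjusted p was 0.0407, and it was the 1 gene of the 10 to pass.

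Mast cells and basophils, dendritic cells and other myeloid cells also transcribe some of these receptor genes. A sort for CD3+ cells selects against such cells, but how completely it did so here was not tested. The summed level of 7 mast cell and basophil markers was 39.2 to 42.6 CPM in controls and 28.1 to 33.2 CPM with IL-33, and 2 of the 4 that could be tested fell, Cpa3 (10.9 to 7.10 CPM) and Cma1 (22.01 to 17.9 CPM), while Mcpt8 was at 5.81 and 4.32 CPM and Hdc at 1.30 and 1.51 CPM. The groups overlapped for Cma1, and its adjusted p in edgeR was 0.0932 without control replicate 1, 0.0858 without IL-33 replicate 1 and 0.0704 without IL-33 replicate 2. That of Mcpt8 was under 0.05 without control replicate 1 (0.0256) or IL-33 replicate 1 (0.00368). Fcer1a, Ms4a2 and Tpsb2 were under the filter on low counts. Fcer1a had 12, 5 and 8 counts in controls and 5, 0 and 0 with IL-33. Ms4a2 had 2, 3 and 6 counts in controls and Tpsb2 1, 4 and 2, and both had 0 in each library with IL-33. The 11 dendritic and myeloid markers in the table summed to 71.3 to 74.4 CPM in controls and 46.0 to 52.2 CPM with IL-33, mostly through Itgax, at 54.6 and 26.0 CPM, which activated T cells also express. Of the 5 of these that could be tested 4 had log2 fold changes above 0, with a median log2 fold change of 0.11, and by the test Itgax fell and Itgam rose, from 2.62 to 4.83 CPM, while Csf1r, Flt3, Lyz2, Fcgr1, Adgre1 and Siglech were under the filter on low counts. B cell markers summed to 5.41 to 5.84 CPM in controls and 5.77 to 6.35 CPM with IL-33, with 0 of the 2 tested past the threshold. NK cell markers summed to 405 to 408 and 373 to 393 CPM, mostly Eomes (373 and 358 CPM), with a fall of Klrb1c among the 2 tested. Ncr1, Klra8 and Klra4 of the NK cell markers were under the filter on low counts. The part of such cells in the falls of Il9r and Il17rb was not tested.

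The chains of the IL-12 receptor differed in level and in their spread. Il12rb2 (ENSMUSG00000018341, minus strand of chromosome 6 from 67291318 to 67376188), the signalling chain, had 219.8, 208 and 213 CPM in controls and 268, 263 and 275 CPM with IL-33, with each library with IL-33 above each control. Its mean rose from 214 ± 5.89 to 268 ± 6.22 CPM (SD, n = 3 each), with a log2 fold change of 0.33 (SE 0.033, 95% interval 0.26 to 0.39, adjusted p = 4.82e-15 in edgeR). Serbp1 on the opposite strand overlaps 40% of its exon bases, and whether counting used the strand is not given in the sources used here, so that reads of the 2 genes may be mixed there. Serbp1 was at 582 CPM in controls and 571 CPM with IL-33, a log2 fold change of -0.028 (adjusted p = 0.487 in edgeR).

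Il12rb1 (ENSMUSG00000000791, plus strand of chromosome 8 from 70808449 to 70821424), the chain shared by the receptors for IL-12 and IL-23, varied most between libraries of one group. Its counts were 400, 769 and 493 in controls and 663, 506 and 461 with IL-33. The coefficients of variation of its CPM, which include counting error, were 38.2% and 20.3%. The biological coefficient of variation common to all genes, which leaves counting error out, was 0.0468 as a fraction, not a percent. Control replicate 2, at 37.8 CPM, was higher than any library with IL-33, and control replicate 1, at 18.9 CPM, lower than any. The log2 fold change was -0.061 (95% interval -1.0 to 0.88, adjusted p = 0.929 in edgeR), an interval that holds changes past the fold change threshold in both directions. Mast3, which lies 3.40 kb away on the opposite strand, was as uneven, with 41.7, 33.1 and 32.6 CPM in controls and 25.7, 45.8 and 25.3 CPM with IL-33 and an SE of 0.31 for its log2 fold change.

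Receptor chains that act together were compared within each library, as ratios of their levels per length, which do not depend on the scaling of the library. For 8 pairs the difference of the log2 ratio was tested by an exact two-sided permutation test, which with 3 libraries against 3 cannot go below p = 0.1, before or after Benjamini-Hochberg adjustment over these pairs. Il2ra per Il2rb was 0.228, 0.229 and 0.231 in controls and 0.272, 0.278 and 0.278 with IL-33, a log2 difference of 0.27 with every library with IL-33 higher (exact p = 0.1, adjusted p = 0.16). Il2rb per Il2rg was 14.4, 13.5 and 13.4 in controls and 15.3, 15.8 and 16.1 with IL-33, a log2 difference of 0.19 (exact p = 0.1, adjusted p = 0.16). The gene of the shared gamma chain thus had the lower level per length beside Il2rb in every library, and lower still with IL-33.

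Of the other chains that pair with the common gamma chain, Il21r per Il2rg was higher in each library with IL-33, with means of 1.58 and 1.76 (log2 difference 0.15, exact permutation p = 0.1). Il9r per Il2rg was lower in each, with means of 0.024 and 0.0169 (log2 difference -0.51, exact permutation p = 0.1). For Il4ra per Il2rg, with means of 1.61 and 1.68, the groups overlapped (log2 difference 0.058, exact permutation p = 0.5). Il17rb per Il17ra, the chains of the IL-25 receptor, was 0.309, 0.409 and 0.391 in controls and 0.209, 0.176 and 0.184 with IL-33, a log2 difference of -0.96 (exact permutation p = 0.1). Il15ra per Il2rb (log2 difference -0.16, exact permutation p = 0.3) and Il12rb2 per Il12rb1 (log2 difference 0.35, exact permutation p = 0.5) overlapped between groups, the latter with 12.6, 5.95 and 10.2 in controls and 9.39, 11.8 and 14.3 with IL-33. In all, 5 of the 8 ratios did not overlap, and the adjusted p was 0.16 for these, 0.4 for Il15ra per Il2rb and 0.5 for the other two.

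**Figure D3:**
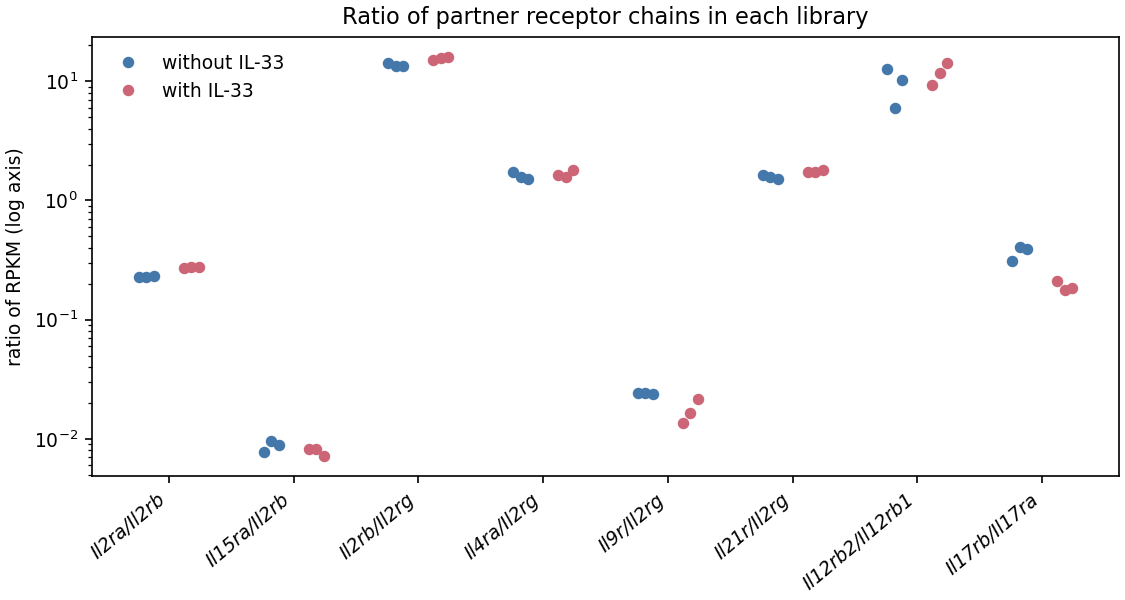
Ratio of the levels per length of partner chains (log axis) in each of the 3 control libraries and the 3 with IL-33. The groups lie apart for Il2ra/Il2rb (means 0.23 and 0.276), Il2rb/Il2rg (13.8 and 15.7), Il9r/Il2rg, Il21r/Il2rg and Il17rb/Il17ra (0.367 and 0.189), and mix for the other 3 pairs.

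Further chains of the same receptors were lower or passed no test. Of the 6 on this list 5 were in the table and 4 could be tested, of which 0 rose and 2 fell, where 13.9% of all genes tested fell, with a median log2 fold change of -0.30. Il7r, the chain for IL-7 and a partner of the common gamma chain, fell from 96.0 ± 3.28 to 60.5 ± 3.40 CPM (SD, n = 3 each), and the log2 fold change was -0.66 (SE 0.045, adjusted p = 1.14e-24 in edgeR), and was past both thresholds. Crlf2, which joins IL7RA in the receptor for TSLP, fell from 127 to 107 CPM, a log2 fold change of -0.25 (adjusted p = 1.43e-07 in edgeR). Il17ra, the partner of IL17RB, had a log2 fold change of -0.045 (adjusted p = 0.552 in edgeR), and Il23r, the partner of IL12RB1 in the IL-23 receptor, had 3.48 and 2.75 CPM (adjusted p = 0.24 in edgeR).

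Of the cytokines that bind these receptors 12 were listed and 9 were in the table, and 4 could be tested, of which 1 rose, where 13.6% of all genes tested rose. Il13, whose product binds IL4RA together with IL13RA1, rose from 72.2 ± 2.17 to 143 ± 7.54 CPM (SD, n = 3 each), with a log2 fold change of 0.99 (adjusted p = 3.23e-39 in edgeR), while Il13ra1 was under the filter on low counts. Il4 was at 6.33 and 6.20 CPM (adjusted p = 0.919 in edgeR), Il21 at 0.398 and 0.818 CPM (adjusted p = 0.0906 in edgeR, and 0.0452 without control replicate 2) and Il23a at 0.598 and 0.46 CPM (adjusted p = 0.629 in edgeR). Il2 had 1, 2 and 0 counts in controls and 0 in each library with IL-33, and Il7, Il15 and Il12a, also under the filter, had 0 to 14 counts in a library. Il9, the ligand of IL9R, was under the filter, and is named here after its values were seen. It had 0 counts in each control and 13, 11 and 7 with IL-33, at least 10-fold higher if the controls together held 3 counts, and in the fit without the filter its adjusted p was 6.27e-05 (edgeR's quasi-likelihood test, Benjamini-Hochberg adjusted). DESeq2 gave it an unadjusted p of 6.57e-05 and, through its own filter, no adjusted p. The receptor gene Il9r was lower in the same 3 libraries.

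The kinases and transcription factors behind these receptors moved in both directions. All 11 JAK and STAT genes could be tested, of which 4 rose and 2 fell, where 27.5% of all genes tested passed, and 0 were past both thresholds, with a median log2 fold change of 0.054. Stat5b, a main factor downstream of IL-2, rose from 172 ± 5.40 to 229 ± 8.40 CPM (SD, n = 3 each), with a log2 fold change of 0.41 (adjusted p = 1.38e-18 in edgeR), and Stat5a by 0.18, Stat3 by 0.26 and Jak1 by 0.16. Stat2, which serves interferon receptors, fell by 0.30 on the log2 scale. Jak3, the kinase bound to the common gamma chain, was at 710 and 732 CPM (log2 fold change 0.042, adjusted p = 0.235 in edgeR).

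Of 9 genes of feedback inhibitors and targets of these receptors, 2 rose and 3 fell, where 27.5% of all genes tested passed, with a median log2 fold change of 0.022. Socs1, an inhibitor of JAK kinases, was the 1 past both thresholds, and it fell from 47.8 ± 0.273 to 26.2 ± 3.01 CPM (SD, n = 3 each), with a log2 fold change of -0.87 (adjusted p = 1.04e-20 in edgeR). Cish, an inhibitor induced by STAT5, fell from 186 to 162 CPM (log2 fold change -0.20) and Pim2 by 0.089 on the log2 scale, while Pim1 (log2 fold change 0.083) and Socs2 (0.33, adjusted p = 0.034 in edgeR) rose, both with overlapping groups. The adjusted p of Pim1 was above 0.05 in DESeq2 (0.0517) and in edgeR without control replicate 2 (0.13), control replicate 3 (0.0987) or IL-33 replicate 3 (0.23). That of Pim2 was above it without control replicate 1 (0.0905), without IL-33 replicate 2 (0.185) and without IL-33 replicate 3 (0.0547). Bcl2 was at 348 and 366 CPM (adjusted p = 0.0606 in edgeR, and 0.00862 without control replicate 1).

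Of 22 other cytokine receptor genes 17 could be tested, and 2 rose and 8 fell, 4 of the latter past both thresholds, with a median log2 fold change of -0.24. Of all genes tested 13.6% rose and 13.9% fell, and 2.39% fell past both thresholds. Il17rc and Il17re, which belong to the same family as Il17rb, fell from 1.82 to 0.759 CPM (log2 fold change -1.25, adjusted p = 0.00239 in edgeR) and from 6.32 to 2.93 CPM (log2 fold change -1.10, adjusted p = 1.46e-07 in edgeR), while Il17rd rose from 4.30 to 5.98 CPM (log2 fold change 0.47, adjusted p = 0.023 in edgeR). Ifngr2 fell from 8.30 to 4.89 CPM and Csf2rb2 from 3.15 to 1.97 CPM, with log2 fold changes of -0.76 and -0.67. The adjusted p of Csf2rb2, 0.0227 in edgeR, was 0.0898 in DESeq2 and in edgeR 0.08 without control replicate 1, 0.114 without control replicate 2, 0.12 without IL-33 replicate 1 and 0.0783 without IL-33 replicate 2. Ifngr1, the most abundant of the list, rose from 511 to 594 CPM (log2 fold change 0.22), and Il27ra and Il10ra fell, with log2 fold changes of -0.49 and -0.26. Csf2rb2 and Csf2rb are near-identical copies, and the value of Csf2rb2 is uncertain because counting could have divided reads between them.

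**Figure D4:**
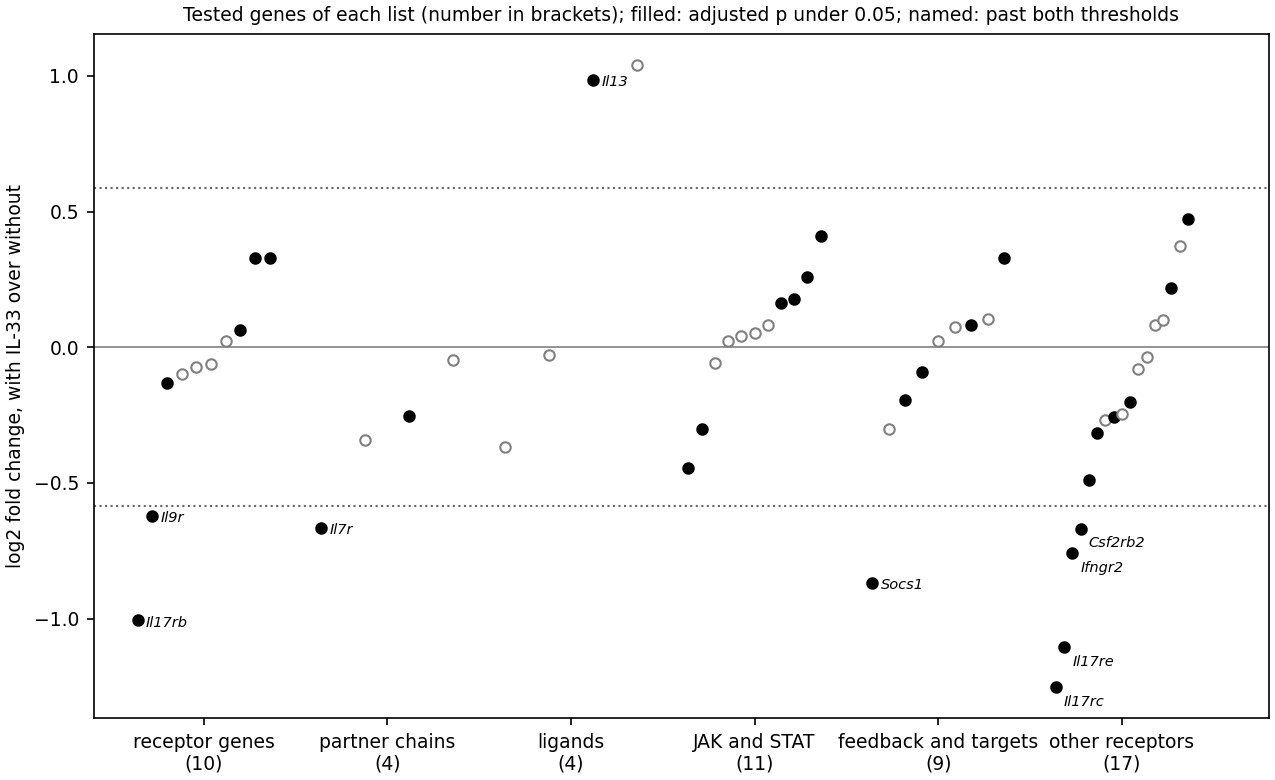
Log2 fold change (y axis, with IL-33 over control) of each tested gene in 6 lists, with the number tested in brackets; filled points have an adjusted p under 0.05, dotted lines mark a fold change of 1.5 in either direction, and genes past both thresholds are named. Il13 at 0.99 is the 1 named gene above 0, and Il17rb, Il9r, Il7r, Socs1, Csf2rb2, Ifngr2, Il17re and Il17rc lie below.

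Genes that lie beside the receptor genes were read from the same fit. Within 100 kb of the 10 genes were 40 other tested genes, of which 6 rose and 2 fell, and 2 of these were past both thresholds, with a median log2 fold change of -0.03. Of all genes tested 27.5% passed the adjusted p and 4.87% both thresholds, and the counts of neighbours are near or under these shares. Around Il2ra and Il15ra 3 genes rose as Il2ra did, Pfkfb3 (log2 fold change 0.33, adjusted p = 5.06e-07 in edgeR), which encodes a regulator of glycolysis and lies 88.7 kb away, Fbh1 (0.22) and Rbm17 (0.11), while Il15ra between them did not pass the test. Beside Il2rb, C1qtnf6 (0.19) and Rac2 (0.10) rose, and beside Il4ra and Il21r 0 genes passed.

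Chdh, which starts 0.127 kb from the start of Il17rb on the other strand, was at 2.97 ± 0.444 CPM in controls and 2.15 ± 0.501 with IL-33 (SD, n = 3 each), with overlapping groups and a log2 fold change of -0.46 (SE 0.23, adjusted p = 0.137 in edgeR). Whether it differed from the fall of Il17rb was not tested. Both genes past both thresholds, Ifi30 (log2 fold change -1.79) and Mpv17l2 (-1.84), lie 41.8 and 47.5 kb from Il12rb1. Their adjusted p values in edgeR, 0.00295 and 0.0445, were above 0.05 with some libraries left out, for Ifi30 without control replicate 2 (0.0648) or IL-33 replicate 2 (0.0533) and for Mpv17l2 without control replicate 1 (0.13), control replicate 3 (0.0875) or IL-33 replicate 2 (0.152).

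**Figure D5:**
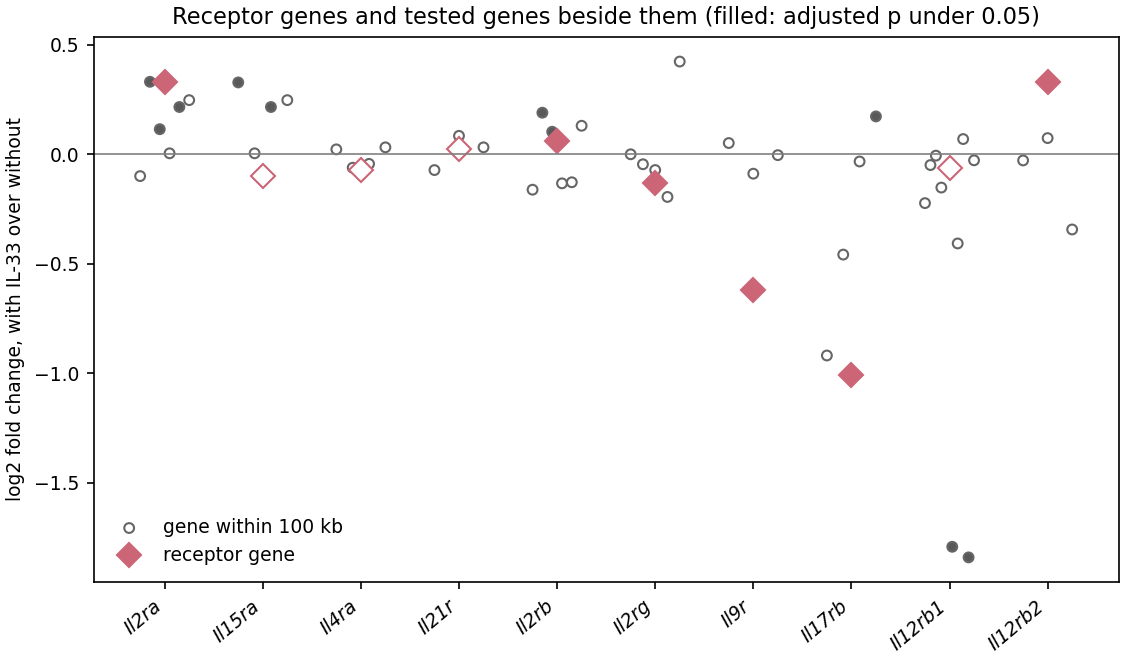
Log2 fold change (y axis, with IL-33 over control) of each receptor gene (diamonds) and of the tested genes within 100 kb of it (circles), with filled symbols for an adjusted p under 0.05. Beside Il17rb (-1.01) and Il9r (-0.62) 0 neighbours fell past the threshold, and the 2 lowest circles, beside Il12rb1, are Ifi30 and Mpv17l2.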

How the data were processed

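RNA was sequenced from 3 control and 3 IL-33 libraries, grouped by the sample labels. As deposited by the authors, the values are unnormalized read counts for each gene and library, with a column of signal, deposited alongside, which is the mean of counts divided by the size factors of DESeq2 (recomputed to within 2.12e-07%). The submitters' processing notes name Bowtie 0.12.2 and mm8 without saying what either was used for. Which program counted reads, and whether by strand, is not given in the sources used here. Library kits differ between sources, since the labels name a TruSeq kit for the libraries and the methods of the study a NEBNext Ultra kit. No batch is named.

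Ensembl identifiers were matched to symbols for 26072 of 26128 genes, and positions and exon lengths are those of GENCODE M21 (GRCm38), which may not be the annotation behind the counts. Counts were filtered by edgeR's filterByExpr (minimum count 10, minimum total 15), which removed 0.11% of the counts, and scaled by TMM. The main test was edgeR's quasi-likelihood F-test (two-sided, robust fit without covariates), Benjamini-Hochberg adjusted across the 14671 genes kept. Means are CPM, and RPKM divides by all exon bases of a gene. The study's thresholds were used, 0.05 for the adjusted p and 1.5 for the fold change. Replicates were compared pair by pair, and since the chi-square per gene was 2.64 to 3.67, none was taken for a repeat of another. The genes described and the lists were chosen with earlier results of these data known. Named from each other list and from the neighbouring genes were all genes past both thresholds, with the 3 of highest mean CPM (for marker lists those of highest mean CPM only), and others named for their role, Il9 among them, were added after their values were seen. Some genes of the lists and loci are not reported here. Tests were tried on simulated counts, where 91% of 200 changed genes were recovered with 13 false calls of 14467 genes. Alternatives were DESeq2, limma-voom, DESeq2 size factors in edgeR, no filter, a filter of at least 1 CPM in all libraries of a group, a replicate block, each library left out, edgeR's glmTreat and other gene lengths, of which that of exon bases shared with no other gene was added after seeing the data. Work was done in Python 3.11.15 and R 4.3.3 (DESeq2 1.42.0, edgeR 4.0.16, limma 3.58.1).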

Additional observations from a re-analysis of the deposited data

How the results depend on the processing

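All receptor genes but Il12rb1 kept the sign of their change in edgeR, DESeq2 and limma-voom and under each filter, scaling, block and left-out library. The log2 fold change of Il12rb1, called under none of these, ran from -0.25 to 0.29 and was above 0 without control replicate 2 (0.29) or IL-33 replicate 3 (0.066). Only some of the other genes named were followed through these alternatives, and Socs2, Stat5b, Cd3e and Chdh were among those not followed. Of the other genes followed, 3 with no call changed sign, and the cause was not tested. They were Il17ra (-0.12 to 0.0153) without IL-33 replicate 2, Il4 (-0.15 to 0.084) without control replicate 3 or IL-33 replicate 2 and Cd3d (-0.035 to 0.0297) without control replicate 1. In place of 714, 113 genes passed both thresholds when tested against the fold change threshold, and 1 receptor gene in place of 2. With 1 library left out 1 to 2 receptor genes passed both thresholds, and 5 to 6 the adjusted p alone. DESeq2 called 3031 genes by the adjusted p and 501 by both thresholds, against 4036 and 714. With the replicate block 3798 and 666 genes were called, 5 and 2 of the receptor genes. Il2rb and, of the other genes followed, Pim1 then lost their calls (adjusted p = 0.059 for both in edgeR with the replicate block). Mcpt8 gained one under the stricter filter (0.0487 in edgeR). Deviations from the group means, over 8839 genes, correlated at 0.047, -0.086 and 0.043 between a control and an IL-33 library of the same replicate number. Between libraries of different numbers they correlated at -0.146 to 0.101. With 3 libraries in each group these values cannot decide whether the replicate numbers pair the samples. With exon bases shared with no other gene as length, Il12rb2 was at 93.9 RPKM in controls, above Il21r at 83.4 and Il2rg at 76.0. In the IL-33 group Il12rb2 was at 117.9 RPKM by this length, above Il4ra at 89.35 and Il21r at 84.68. Low counts limit what can be said of Il9r, Il17rb and Il9, and the spread between libraries what can be said of Il12rb1.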
